A study of Mus musculus with 5 samples.

Results

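The regions described here are H3K4me3 regions of mouse dendritic cells that were listed in diluent and had no counterpart in SAHA. They are the rows of the authors' H3K4me3 list for diluent cells, called against IgG, that overlap no row of the matching SAHA list by 1 bp or more. The diluent list held 22255 regions, of which 1196 had no SAHA overlap (5.37%, exact 95% interval 5.08 to 5.68%). The other 21059 overlapped a SAHA region and are called shared diluent regions below. The choice rests on region calls in these same 2 H3K4me3 libraries, so the scores, tags and distances given for the 1196 regions describe what was chosen and support nothing further.

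The series has 5 ChIP-seq libraries, 1 per group, so no difference between conditions has a replicate check and no p-value was computed. All groups were bone marrow derived dendritic cells of C57BL/6 female mice aged 10 weeks, grown for 7 days in GM-CSF and IL-4 (10 ng/mL each) and selected on CD11c to a labelled purity of 95%. The groups were H3K4me3 in SAHA, STAT3 in SAHA, H3K4me3 in diluent, STAT3 in diluent, and IgG in diluent. SAHA (vorinostat, an inhibitor of histone deacetylases, labelled 500 nm) or its diluent was given for 12 hours after purification, and the stated question was where these factors and marks bind the genome. The IgG library of diluent cells is the only control library used here, and it had no counterpart from SAHA-treated cells. The labels do not give the number of mice behind a library.

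H3K4me3 is trimethylation of lysine 4 on histone H3. SET1 and MLL family enzymes write it, KDM5 family enzymes remove it, and it forms sharp, strong domains over the starts of active genes, above all where the DNA is rich in CG dinucleotides. Weaker and narrower H3K4me3 also occurs at enhancers and inside genes, and starts of developmental genes that are silent in a cell type can carry a low level of it together with H3K27me3. SAHA raises histone acetylation and does not act on methyl groups directly.

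The H3K4me3 libraries held 21428355 tags in SAHA and 22420200 in diluent after duplicate filtering, against 18925827 in IgG. The diluent library was thus slightly deeper, and the part of depth in the calls was not tested. All 8 dendritic cell markers examined (Itgax, Flt3, Zbtb46, Cd74, H2-Ab1, Ciita, Csf2ra and Spi1) had a region within 1 kb of the start in SAHA and in diluent. Of 14 macrophage and monocyte markers 10 had one in SAHA and 9 in diluent. Of 16 granulocyte and mast cell markers 4 had one in SAHA and 3 in diluent, and of 22 T, B and NK cell markers also 4 in SAHA and 3 in diluent. No marker of these 4 lists had a diluent-only region within 1 kb of its start.

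The RefSeq promoters of 5 genes with a diluent-only region at the start are printed here because their starts carried H3K4me3 in the diluent list and no SAHA region within 5 kb. Fgf9 encodes a fibroblast growth factor, Pcdh17 a protocadherin of cell adhesion, Reep1 a protein that shapes the endoplasmic reticulum, Trib2 a pseudokinase and Dlx1 a homeobox factor of forebrain development. Each sequence runs 250 bases before to 50 after the start, 5′ to 3′, in build GRCm38.p6, with every CG dinucleotide in capitals. The files' regions are mm9 positions, so a region cannot be placed inside these sequences. The Fgf9 promoter lies at chr14:58072436-58072735 on the plus strand, that of Pcdh17 at chr14:84443313-84443612 on the plus strand and that of Reep1 at chr6:71707431-71707730 on the plus strand. The Trib2 promoter lies at chr12:15816736-15817035 on the minus strand and that of Dlx1 at chr2:71529195-71529494 on the plus strand.
Fgf9: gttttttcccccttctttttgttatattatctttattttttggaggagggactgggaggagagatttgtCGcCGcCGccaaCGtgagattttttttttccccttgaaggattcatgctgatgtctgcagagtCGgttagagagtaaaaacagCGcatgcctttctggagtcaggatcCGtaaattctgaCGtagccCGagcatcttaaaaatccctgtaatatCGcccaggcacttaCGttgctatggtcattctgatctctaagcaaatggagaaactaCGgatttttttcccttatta
Pcdh17: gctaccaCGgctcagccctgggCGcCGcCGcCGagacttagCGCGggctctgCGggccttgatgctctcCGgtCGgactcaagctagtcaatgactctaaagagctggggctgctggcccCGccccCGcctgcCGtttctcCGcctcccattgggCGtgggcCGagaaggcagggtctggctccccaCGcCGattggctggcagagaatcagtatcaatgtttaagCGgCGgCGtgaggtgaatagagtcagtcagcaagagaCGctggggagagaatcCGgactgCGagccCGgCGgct
Reep1: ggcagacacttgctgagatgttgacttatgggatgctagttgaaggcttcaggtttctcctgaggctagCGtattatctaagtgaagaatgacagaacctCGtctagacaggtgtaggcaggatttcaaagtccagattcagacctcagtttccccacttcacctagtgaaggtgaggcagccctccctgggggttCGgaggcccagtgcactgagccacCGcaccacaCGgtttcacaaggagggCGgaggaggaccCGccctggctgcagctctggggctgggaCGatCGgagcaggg
Trib2: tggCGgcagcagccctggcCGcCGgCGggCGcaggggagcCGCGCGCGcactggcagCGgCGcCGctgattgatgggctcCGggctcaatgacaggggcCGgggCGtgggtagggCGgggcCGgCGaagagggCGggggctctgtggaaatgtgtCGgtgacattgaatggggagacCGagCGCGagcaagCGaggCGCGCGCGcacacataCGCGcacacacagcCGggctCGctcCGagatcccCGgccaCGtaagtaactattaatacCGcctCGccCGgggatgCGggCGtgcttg
Dlx1: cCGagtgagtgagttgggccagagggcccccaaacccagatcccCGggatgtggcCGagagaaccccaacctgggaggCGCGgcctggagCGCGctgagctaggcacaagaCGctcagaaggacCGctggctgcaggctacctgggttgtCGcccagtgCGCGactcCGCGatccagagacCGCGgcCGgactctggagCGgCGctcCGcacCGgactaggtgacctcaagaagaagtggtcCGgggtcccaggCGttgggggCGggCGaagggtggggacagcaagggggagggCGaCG
These promoters ranged widely in CG content. Reep1 had 9 CG dinucleotides in 300 bases and Fgf9 had 12, while Pcdh17 had 26, Dlx1 27 and Trib2 40. G and C made up 42.7% of the Fgf9 promoter and 71.0% of the Trib2 promoter. No comparison of CG content between genes of this kind and other genes is given, since 108 of the 136 with a RefSeq symbol had a promoter in the table (79.4%), too few for that check.

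Most diluent-only regions were weak and narrow. Their score in the authors' list, which grows with the caller's confidence, had a median of 72.5 (quartiles 58.4 and 106), against 2668 (259 and 3100) for shared diluent regions. The lists start at a score of 50. Of the diluent-only regions 345 (28.8%, 26.3 to 31.5%) scored under 60, against 586 (2.78%) of the shared diluent regions. None reached 3100, where the scores level off, whereas 10199 (48.4%) of the shared diluent regions did. Their median length was 672 bp, against 1795 bp, and together they covered 0.880 Mb, against 43.9 Mb.

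Tags, the aligned reads counted in a region, came from the table of the diluent library called without a control. It held 929 of the 1196 regions (77.7%), all with the same ends as in the list, and the other 267 have no tag count here. The 929 regions had between 16 and 1126 tags, with a median of 30 (quartiles 23 and 41), whereas shared diluent regions had a median of 457 (86 and 1125). Per kb of region the medians were 44.2 tags for diluent-only and 223 tags for shared diluent regions. At least 50 tags fell in 140 diluent-only regions, and at least 100 in 20. These make up 0.836% of the 16741 diluent regions with 50 tags or more and 0.143% of the 13990 with 100 or more.

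**Figure D1:**
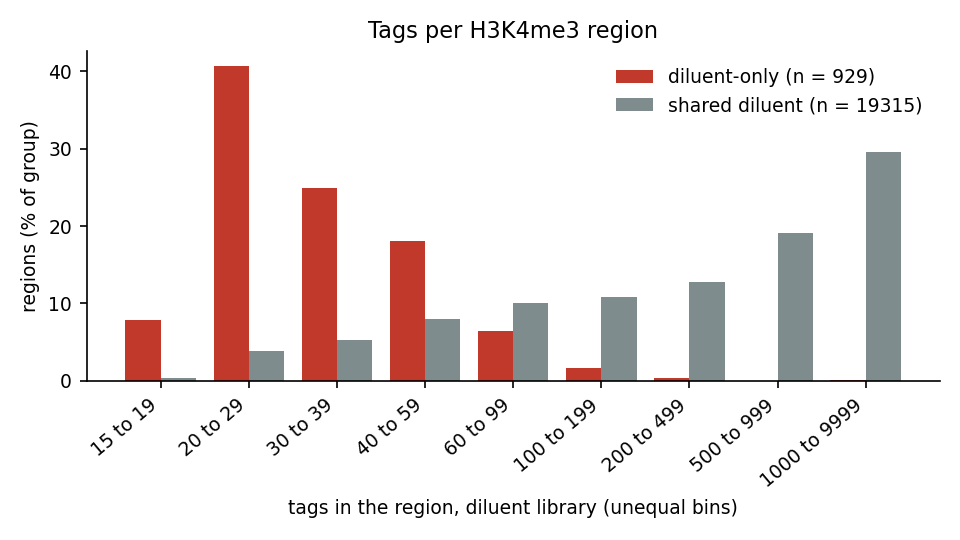
Share of regions (%) by tags in the diluent library, in bins of unequal width, for the 929 diluent-only regions (red) and the 19315 shared diluent regions (grey) with a tag count; bars are shares of each group. Diluent-only regions pile up at 20 to 29 tags, which hold 40.6% of them, at the low end of the shared regions.

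The share found only in diluent was lower in each higher score band. It was 37.1% (345 of 931) at scores of 50 to 60, 24.4% (520 of 2129) at 60 to 100 and 10.2% (257 of 2519) at 100 to 200. It was 2.43% (64 of 2630) at 200 to 500 and 0.503% (10 of 1989) at 500 to 1200, and none of the 1858 regions between 1200 and 3100 was diluent-only. Within a band the share differed little by position, though in each band below 1200 it was higher within 1 kb of a start than beyond 5 kb. Over all scores it was lower near starts, 1.81% within 1 kb and 10.5% beyond 5 kb. At scores of 50 to 60 the share was 40.5% within 1 kb of a start and 38.6% beyond 5 kb, and at 100 to 200 it was 13.5% and 9.96%, with intervals that overlap.

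**Figure D2:**
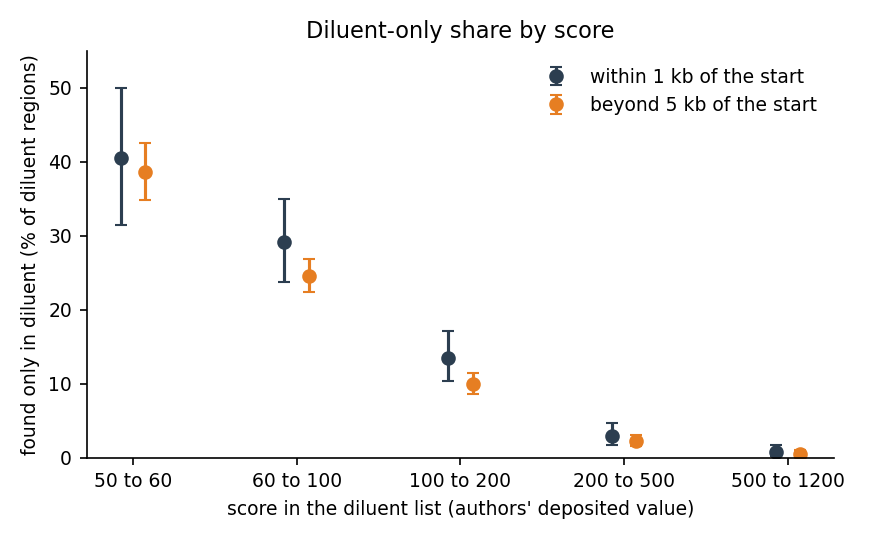
Share of diluent regions found only in diluent (%), by score band of the authors' diluent list, for regions within 1 kb of the assigned start (dark) and beyond 5 kb (orange); points are shares and bars exact 95% intervals, which cover counting error only. Both series fall together: 40.5% and 38.6% at scores of 50 to 60, and 0.760% and 0.468% at 500 to 1200.

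The rule was also close to a tie for some regions. A region assigned to Ptp4a2, a tyrosine phosphatase, touched a SAHA region with no shared base, and the next nearest inside the rule lay 2 bp (Rgs2), 9 bp (Gpr55), 14 bp (9330020H09Rik) and 20 bp (Arpc3) away. Just outside it, a region in Cdk14 shared 2 bp with a SAHA region, one at Hdrpa 3 bp, one in Ccdc93 15 bp, one in Cblb 35 bp and one in Prss22 41 bp. In all, 18 diluent-only regions lay within 50 bp of a SAHA region, and 5 shared diluent regions overlapped one by less than 50 bp.

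A small minority had a strong signal, and the highest score was at a region assigned to Dnmt3a, which encodes a de novo DNA methyltransferase. That score, 1132.31, belonged to chr12:3860483-3862579 (mm9), with 259 tags in diluent. The region lay 30.2 kb upstream of the start of the assigned Dnmt3a transcript. Other transcripts of the gene were not examined, so it may lie inside the gene. The SAHA library had a region there in its table called without a control, with 19 tags over 502 bp. A second Dnmt3a region, at chr12:3872869-3875147 and 17.7 kb upstream of the assigned start, scored 614.49 with 189 diluent tags. It had no SAHA region in either table. The nearest listed SAHA regions lay 3651 bp and 1357 bp away. Between the 2 in score stood Gpd2 and Gmpr and a pair of starts without a characterised gene, AK165120 (score 1114.42, 215 diluent tags) and A630012P03Rik (621.92, 138 diluent tags), both with no SAHA region in either table. The assigned start of Dnmt3a itself was not among the diluent-only regions.

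The other high-scoring regions lay both away from and over gene starts. One in Gpd2, a mitochondrial glycerol-3-phosphate dehydrogenase, had 191 diluent tags 52.3 kb into the transcript. One assigned to Gmpr, a GMP reductase, lay past the end of the transcript and 160 kb from its start. It had 180 tags and a weaker neighbour 283 bp away that was also diluent-only. A region 5.32 kb into Klc4, a kinesin light chain, had 112 tags, and one assigned to Gfra2, a receptor for neurturin, had 106 tags 52.1 kb from the start, past the end of the assigned transcript. A region in Tdg, the thymine DNA glycosylase of active demethylation, had 110 tags 14922 bp past its start.

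Over starts, leaving aside unnamed transcripts, the highest scores were at Slc27a1, Cdh2, Sh3kbp1 and Fgf9. The Slc27a1 region (chr8:74103202-74105654), at the start of a fatty acid transporter, scored 597.83 with 156 diluent tags, and the nearest SAHA region lay 7616 bp away. The start of Cdh2, which encodes N-cadherin, had 129 tags, but there a SAHA region ended 191 bp away. The Sh3kbp1 region (chrX:156278279-156280472), at a start of an adaptor of receptor endocytosis, had 133 tags and no SAHA region for 145368 bp. Of the 20 diluent-only regions with 100 or more tags, 18 overlapped no region of the SAHA table called without a control, and of the 140 with 50 or more, 114 overlapped none.

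A larger share of diluent-only than of shared diluent regions lay away from gene starts, by intervals that do not overlap. Of the 1196 regions, 205 (17.1%, 15 to 19.4%) had their midpoint within 1 kb of the assigned start, against 11093 (52.7%, 52.0 to 53.4%) of the shared diluent regions. A further 172 (14.4%) lay 1 to 5 kb away, against 2953 (14%), and 819 (68.5%, 65.8 to 71.1%) lay beyond 5 kb, against 7013 (33.3%). Beyond 50 kb there were 210 (17.6%), against 1442 (6.85%). By place, 466 were upstream of the assigned gene, 395 inside the transcript away from the start, 203 past the end, and 132 covered the start (11%, against 56.5% of shared diluent regions). Position was not used by the rule, but weak regions of the list lie off starts too. Of the 931 diluent regions with scores of 50 to 60, 116 lay within 1 kb of a start and 640 beyond 5 kb. The difference in position is therefore not separate from the difference in score.

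**Figure D3:**
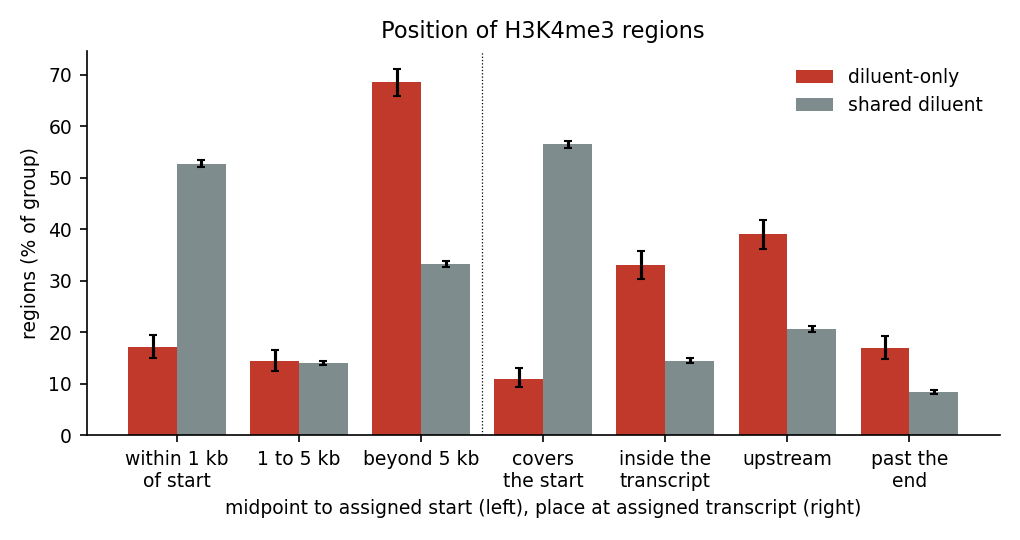
Share of regions (%) by distance of the midpoint to the assigned start (left of the dotted line) and by place relative to the assigned transcript (right), for 1196 diluent-only regions (red) and 21059 shared diluent regions (grey); bars are shares and error bars exact 95% intervals, which cover counting error only. Diluent-only regions lie mostly beyond 5 kb (68.5% against 33.3%) and seldom cover the start (11% against 56.5%).

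A SAHA region lay within 2 kb of 201 diluent-only regions (16.8%, 14.7 to 19.0%), so most had no SAHA neighbour at that distance. Another region of the diluent list lay within 2 kb of 17.2% of all diluent regions (3829 of 22255). A share of this size was therefore not particular to diluent-only regions. The gap was at most 500 bp for 100 (8.36%), at most 5 kb for 344 (28.8%) and at most 50 kb for 897 (75%), with a median of 13748 bp (quartiles 3845 and 49838 bp). In 159 of the 201 (79.1%) the nearest SAHA region also overlapped a diluent region. In 42 (20.9%) it was found only in SAHA, near the 17.8% of all SAHA regions that were. Another diluent region lay within 2 kb of 155 of the 201 (77.1%). Proximity depended on position. It held for 21 of 205 (10.2%) within 1 kb of a start, 71 of 172 (41.3%) at 1 to 5 kb and 109 of 819 (13.3%) beyond 5 kb.

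**Figure D4:**
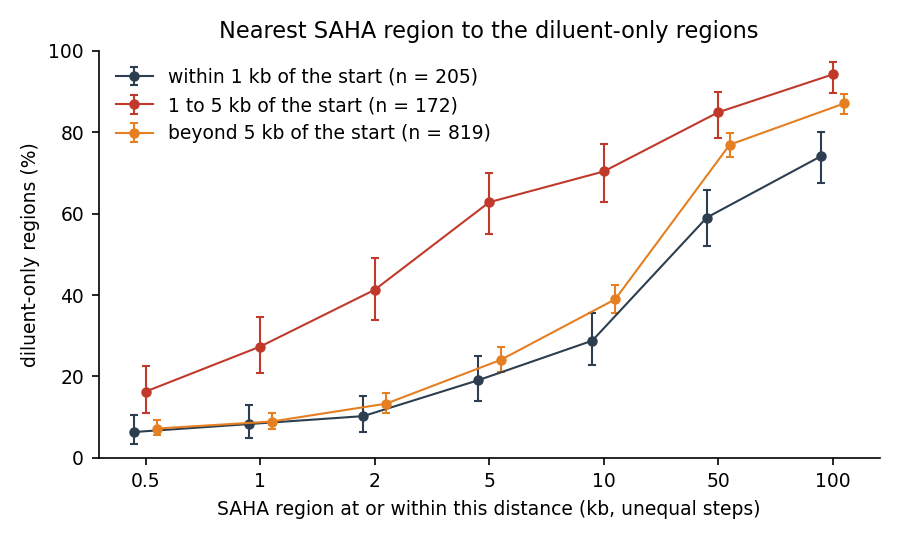
Share of diluent-only regions (%) with a listed SAHA region at or within the distance on the x axis (kb, unequal steps), by distance of the region to the assigned start; points are shares and bars exact 95% intervals, which cover counting error only. Regions 1 to 5 kb from a start (red) reached the higher share: 41.3% within 2 kb, against 10.2% within 1 kb of a start (dark) and 13.3% beyond 5 kb (orange).

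Among regions assigned to characterised genes, the 5 farthest from any SAHA region were at Ncam2, Sorcs1, Cadm2, Reg3b and Pcdh17, and regions of a few uncharacterised transcripts had gaps as wide. The region at the start of Ncam2 (chr16:81200467-81201514), a neural cell adhesion molecule, had 57 diluent tags, and the nearest SAHA region was 2622131 bp away. The start of Sorcs1, a sorting receptor of neurons, had 50 tags and a gap of 2358241 bp. That of Cadm2, a synaptic adhesion molecule, had 23 tags and a gap of 1804278 bp, and that of Pcdh17 91 tags and a gap of 1688817 bp. The nearest other diluent regions were also far, 1040721 bp from the Ncam2 region and 2696029 bp from the Pcdh17 region. The Reg3b region lay 155 kb upstream of that gene, which encodes an antimicrobial lectin, whereas the other 4 lay within 1 kb of the assigned start.

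At the level of genes, 163 genes had a diluent-only region within 1 kb of the start and no SAHA region within 5 kb of it. By RefSeq symbols these were 136 of 10046 genes with a diluent region within 1 kb, 1.35%, and the rule fixed which they were. For 119 of the 163 no region of the SAHA list was assigned to the gene at any distance, and for 51 the nearest SAHA region was more than 100 kb away. Tags were on file for 144 of them, between 17 and 1126 with a median of 32.0. At 10 of the 163 the SAHA table called without a control did hold a region.

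Of the 10 genes with the highest scores among these, Slc27a1 and Sh3kbp1 are described above. Sp8, a zinc finger factor of limb and brain outgrowth, had 82 diluent tags at its start (score 455.22) and the highest fold over local background of any diluent-only region, 21.95. Its nearest SAHA region was 266615 bp away. Lhx2, a LIM homeobox factor of forebrain, hair follicle and blood progenitors, had 80 tags over its start (score 362.23), and 2 weaker diluent-only regions followed in the gene. The Fgf9 start had 100 tags (score 477.95) and a second diluent-only region downstream with 53 tags. These starts had no region in either SAHA table.

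The other genes of the 10 had between 69 and 95 diluent tags. Pcdh17 had 91 tags (score 407.89). Reep1 had 85 tags, with the nearest SAHA region 73411 bp away, and Trim67, a ubiquitin ligase of neurons, had 74 tags and 39653 bp. Trib2 had 95 tags and 766258 bp, and Gprin2, a G protein regulator of neurite growth, had 69 tags and 94598 bp. Dlx1, named from the list of developmental factors and not by score, had 69 tags at its start, with the nearest SAHA region 50284 bp away.

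The gene lists give few diluent-only regions near starts. Over all genes, 314 of 11488 with a diluent region within 5 kb of the start had a diluent-only one there (2.73%). At any distance it was 955 of 12622 genes (7.57%). Among developmental transcription factors it was 2 of 18, Dlx1 and Lhx2 (exact 95% interval 1.38 to 34.7%), and with Neurog2 and Pax3 farther out it was 4 of 22 at any distance. Among morphogens and growth factor signals it was 1 of 26, Fgf9, and with Fzd1, Gfra2, Wnt10a and Wnt11 farther out it was 5 of 31. Among neural adhesion, guidance and channel genes it was 2 of 25, Cdh2 and Unc5b, and 8 of 34 at any distance. The intervals of all 3 shares within 5 kb hold 2.73%. The lists were chosen with results of these data known.

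None of 17 dendritic cell identity genes, 13 costimulation genes or 27 JAK-STAT genes with a diluent region within 5 kb had a diluent-only one there. Farther out, 5 of 27 JAK-STAT genes did (18.5%, against 7.57% of all genes at any distance): Il10ra and Il6st, receptor chains for IL-10 and the IL-6 family, the kinase Tyk2, the phosphatase Ptpn11 and the STAT inhibitor Pias1. Of these, Pias1 scored 107.25 with 51 diluent tags 26484 bp upstream, and Il10ra scored 67.69 with 31 SAHA and 35 diluent tags 12221 bp upstream. Runx1, a haematopoietic factor, had one 81858 bp from the assigned start with 31 diluent tags, and Cd86, a costimulatory ligand, had one 32548 bp into the gene with 29.

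Inflammatory cytokine and chemokine genes had 3 of 19 within 5 kb (15.8%, 3.38 to 39.6%, against 2.73% over all genes): Ifnb1 (interferon beta), Il23a (a subunit of IL-23) and Il27 (a subunit of IL-27). The Ifnb1 region, 1133 bp past its start, scored 73.59 with 30 diluent tags, and the nearest SAHA region was 5.31 kb away. The Il23a region scored 51.85 just upstream, and the Il27 region scored 77.09 at 2970 bp upstream with a SAHA region 0.510 kb away. All 3 scored near the lower end of the list. Il1a and Il10 had one beyond 5 kb, that of Il1a with 44 tags 28324 bp upstream.

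Ido2, a tryptophan-degrading enzyme related to Ido1, was the single gene of the tryptophan and regulatory list with a diluent-only region within 5 kb. That was 1 of 13 genes with a diluent region within 5 kb (7.69%, 0.195 to 36.0%), against 2.73% of all genes. The Ido2 region covered the start. That region had 21 tags in the SAHA library's own table and 34 in diluent. Per kb, scaled to filtered tags, the log2 ratio of SAHA to diluent was -0.04. Nos2, the inducible nitric oxide synthase, had one 33394 bp upstream with 23 diluent tags.

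None of the 22 histone deacetylase and acetyltransferase genes, the 14 DNA methylation genes or the 17 H3K4 methylation enzymes and demethylases with a diluent region within 5 kb had a diluent-only one there. At any distance it was 3 of 23 deacetylase and acetyltransferase genes, 2 of 14 DNA methylation genes and none of the 17 H3K4 enzymes, against 7.57% of all genes. Sirt6 (a deacetylase of the sirtuin family) had 137 diluent tags 5721 bp past its start, and Hdac4 (a class IIa deacetylase) 69 tags 20974 bp into the gene. Myst2, now named Kat7 (an acetyltransferase), had 23 tags. Cdkn1c, a cyclin-dependent kinase inhibitor, had 29 tags just upstream of its start, but a SAHA region lay 0.161 kb away. Of 12 housekeeping genes none had one within 5 kb, with Hprt farther out. Among macrophage markers it was none of 10, with Emr1 (now Adgre1), Fcgr1 and Mertk farther out, and among granulocyte and mast cell markers none of 5. Cd79b and Lef1 were 2 of 6 T, B and NK cell markers within 5 kb (33.3%, interval 4.33 to 77.7%), against 2.73% of all genes. They had 24 and 35 diluent tags upstream of the start.

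In the SAHA library called without a control, a region lay under 122 diluent-only regions (10.2%, 8.54 to 12.1%), against 19488 (92.5%) of the shared diluent regions. SAHA tags are on file only where that library had a called region, so elsewhere the SAHA tag count is not known here. Of these 122, 121 also had a diluent tag count. Their tags ranged from 15 to 935 in SAHA, with a median of 23, and from 17 to 1126 in diluent, with a median of 38. The median region length was 612 bp in SAHA and 793 bp in diluent, and SAHA had fewer tags at 115 of the 121. Per kb and scaled to filtered tags, the median log2 ratio of SAHA to diluent was -0.27 (range -1.64 to 0.29), against -0.07 over 18909 shared pairs.

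The size of the difference depended on whether length was taken into account, since each library's region was called with its own ends. Scaled to filtered tags but not to length, the median log2 ratio was -0.64, and its exact interval lay below 0 at 47 of the 121, held 0 at 74 and lay above 0 at none. Per kb, the interval held 0 at 112, lay below 0 at 9 and above 0 at none. Tags per kb were at least 2-fold lower in SAHA at 3 regions, where 38 of all 19030 pairs (0.200%) were, and at least 2-fold higher at none. The rule selected these regions for a missing SAHA call, so a ratio below 0 was favoured by the choice.

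The lowest ratio was at Dnmt3a, -1.64 (-2.40 to -0.97), from the 19 SAHA and 259 diluent tags given above. A region 30.3 kb into Tem8, the anthrax toxin receptor now called Antxr1, had 20 SAHA tags and 66 diluent tags (-1.04, -1.84 to -0.30). One past the end of Stx4a, a plasma membrane syntaxin, lay 8.83 kb from the start. It had 21 SAHA and 92 diluent tags (-1.0, -1.76 to -0.30). One 14.3 kb upstream of Dennd4c, an exchange factor for Rab proteins, had 24 SAHA and 39 diluent tags (-1.11). Npas4, an activity-induced transcription factor of neurons, had 22 SAHA and 96 diluent tags upstream (-0.69, -1.43 to -0.01). At the other end, a region 38.6 kb upstream of Strap had 41 SAHA and 32 diluent tags, a ratio of 0.29 whose interval holds 0.

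The region with the most diluent tags had about the same tag density in both libraries. At the start of Sfi1, a centrosomal protein (chr11:3091645-3095166), the SAHA table had 935 tags over 2882 bp and the diluent library 1126. The log2 ratio per kb was 0.09 (-0.04 to 0.21). In the diluent list against IgG the region scored 156.92, low for its tags, and the SAHA list did not hold it. In all, 1166 of the 23280 regions of the SAHA table called without a control overlapped no region of the SAHA list. Without the control the Sfi1 start counts as shared.

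**Figure D5:**
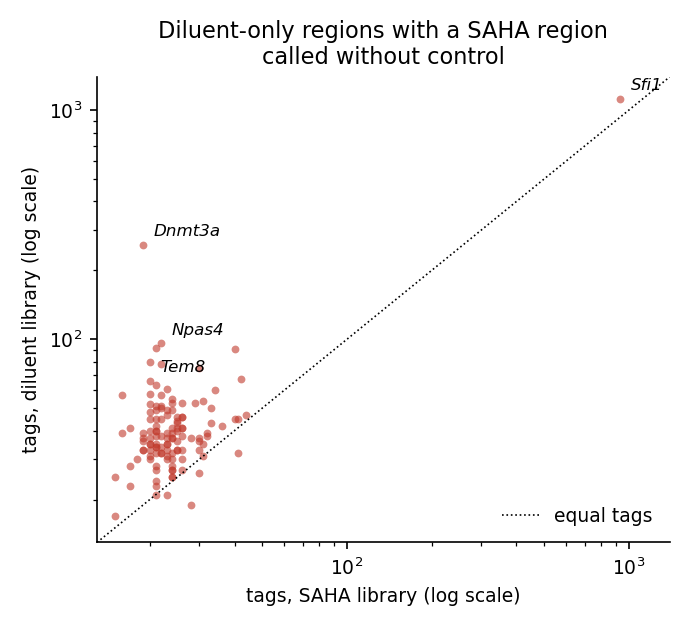
Tags in the SAHA library (x axis, log scale) and in the diluent library (y axis, log scale) at the 121 diluent-only regions with a region in both tables called without a control; each point is a region and the dotted line marks equal tags. Nearly all points lie above the line; Dnmt3a (19 SAHA, 259 diluent tags) stands far above it, and Sfi1 (935 SAHA, 1126 diluent tags) lies close to it.

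STAT3, a transcription factor that cytokine receptors activate, overlapped a smaller share of diluent-only than of shared diluent regions, and its libraries were not used by the rule. A STAT3 region of SAHA cells overlapped 30 of them (2.51%, 1.70 to 3.56%), against 2067 (9.82%, 9.42 to 10.2%) of the shared diluent regions and 9.42% of all diluent regions. A STAT3 region of diluent cells overlapped 22 (1.84%, 1.16 to 2.77%), against 849 (4.03%, 3.77 to 4.31%) and 3.91% of all. The intervals of diluent-only and shared diluent regions do not overlap in either condition, and they cover counting error only. Regions found only in SAHA, described below, also had low shares. These were 3.22% (2.72 to 3.77%) for STAT3 of SAHA cells and 2.52% (2.08 to 3.01%) for STAT3 of diluent cells. Their intervals overlap those of the diluent-only regions. Length and position differed between diluent-only and shared diluent regions as well, and their part in the overlap was not tested.

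At diluent-only H3K4me3 regions of characterised genes, the 5 highest-scoring STAT3 regions per condition lay off gene starts. Not all STAT3 overlaps did, since the diluent-only regions of Ift172 and Pgbd5 covered the start and overlapped a STAT3 region of SAHA cells. In SAHA cells, STAT3 regions scored 106.57 upstream of Tmprss13 (a membrane serine protease), 75.74 in Smc5 (a genome maintenance protein) and 69.35 at Sncb (beta-synuclein). They scored 64.65 at Tnfrsf14, the HVEM receptor of T cell signalling, and 60.97 at Ubl3, a ubiquitin-like protein. In diluent cells they scored 68.91 at Cdh23, a cadherin, 67.61 at Clec4n, the fungal receptor dectin-2, and 52.34 at Pla2g4a, a phospholipase. They scored 44.83 at Tnip2, an inhibitor of NF-kB signalling, and 43.08 at Mitf, a lineage transcription factor. Tmprss13 was in both STAT3 lists, with a score of 35.47 in diluent. No diluent-only region overlapped a region of the IgG library (0 of 1196, which allows up to 0.308%), against 23 (0.109%) of the shared diluent regions. The diluent list was itself called against IgG, so this overlap cannot serve as a check of background.

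Regions found only in SAHA give the mirror of these calls and were more numerous, 4572 of 25723 (17.8%). Both kinds were weak, with a median of 30 diluent tags at diluent-only regions and 34.0 SAHA tags at SAHA-only regions. Of the diluent-only regions 17.1% lay within 1 kb of a start and 33.0% inside a transcript, against 9.34% and 42.1% of SAHA-only regions. A region of the other condition lay within 2 kb of 16.8% (14.7 to 19.0%) of them, against 24.0% (22.7 to 25.2%). Where they did, that neighbour was a shared region in 79.1%, against 95.8% for SAHA-only regions. Both shares lay near those of the lists that the neighbours came from. Of all SAHA regions 17.8% had no counterpart, and of all diluent regions 5.37%.

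The 1196 regions were assigned to 1110 gene symbols, of which 82 had at least 2 diluent-only regions and 4 had 3. Lhx2 and Igf2bp2, an RNA-binding protein of fetal tissues, were among those with 3. The 3 Igf2bp2 regions scored between 60.12 and 116.78 and spread from 3420 bp upstream to 24822 bp into the gene. Pairs close together occurred at Npas4 and at Plekhm1, a lysosome fusion adaptor, and 60 of the 1196 lay within 5 kb of another diluent-only region. The related Igf2bp1 had 1 region at its start, with 28 diluent tags. By chromosome the diluent-only share of diluent regions ran between 3.34% on chromosome 11 and 7.21% on chromosome 13, and it was 6.30% on X.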

How the data were processed

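H3K4me3, STAT3 and IgG ChIP-seq of mouse dendritic cells gave 5 libraries. The submitters' processing notes name BWA and the mm9 build, without versions. Per the file headers, MACS 1.4.0rc2 called the regions of each library on its own, with no control library, a p limit of 1e-05 and 2 duplicate tags allowed per position. These deposited tables give tag counts and, as a ratio, fold enrichment over local background. The authors' lists against IgG have no header; each gives a score per region, which is the authors' own value, and a gene. The settings behind these lists are not given in what was used here.

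Regions were compared by overlap of 1 bp, and distances to starts were taken from midpoints. Tags came from regions with the most overlap. Shares carry exact Clopper-Pearson 95% intervals and tag ratios exact conditional binomial intervals, scaled to filtered tags. Both cover counting error only. The overlap search and the tag ratio intervals, the latter with equal region lengths, were tested on simulated data. Filtered tags per H3K4me3 library were 21428355 in SAHA and 22420200 in diluent. Of 1110 symbols 955 (86.0%) matched RefSeq names (GRCm38.p6, names and promoters only). The members and 16 gene lists were chosen with earlier results of these data known. Genes named came from the 10 regions highest in score and the 10 highest in tags. Up to 10 genes were taken by number of regions, up to 10 by score at starts and up to 4 per list. Also taken were 5 regions highest in STAT3 score per condition, 5 at each end of the tag ratio and 5 with the widest gap. Regions at the rule's edge, Igf2bp1 and further members of a counted list were named after their values were seen. Predicted genes were passed over, except AK165120, A630012P03Rik and 9330020H09Rik. Alternatives varied the overlap, score limit, list length, controls and distances. Python 3.11.15, numpy 2.4.6, scipy 1.17.1, pandas 2.3.3 and matplotlib 3.10.9 were used.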

Additional observations from a re-analysis of the deposited data

How the results depend on the processing

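Of the 62 alternatives, 39 left the value within its own interval or, for counts, within 1.5 times, and 23 did not. Only the median log2 ratio could change sign, and it did not. Dropping regions over IgG regions removed none of the 1196, so that alternative could not move a value. The count of 1196 diluent-only regions became 331 at scores of at least 100 and 2085 against as many top-scoring SAHA regions as diluent has. The 163 start-marked genes became 67 and 258 under the same settings. With those scores, 23.9% lay within 1 kb of a start in place of 17.1%, 63.1% beyond 5 kb in place of 68.5%, and 5.14% overlapped STAT3 of SAHA cells in place of 2.51%. The share with a SAHA region within 2 kb, 16.8%, was 25.8% when 50% of a region had to be covered, 9.22% when a gap of 500 bp counted as shared, 13.4% against the top SAHA regions and 12.9% in the tables called without a control. At limits of 1 kb and 5 kb it was 11.5% and 28.8%. The 10.2% with a region in the SAHA table called without a control became 16.9% at 50% cover and 36.5% against the top SAHA regions. The median log2 ratio per kb, -0.27, was -0.215 at 50% cover, -0.582 at scores of at least 100 and -0.130 against the top SAHA regions. Without length it was -0.635, and as raw tags -0.700. With regions from the tables called without a control, STAT3 overlap was 4.92% in SAHA and 3.0% in diluent, and overlap with IgG was 2.94% in place of 0. The causes of these shifts were not tested. No paired analysis was possible because each group held 1 library. A diluent-only call says that no SAHA region was listed, not that the mark was absent in SAHA, since the fewest tags in any SAHA region of its own table was 15.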
